A study of Mus musculus with 4 samples.

Results

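The genes described here are 9 transcription factors that carry a precursor cell towards the fat cell: Pparg, the C/EBP genes Cebpa, Cebpb and Cebpd, the Krüppel-like factor Klf15, the zinc finger factor Zfp423, and the early B cell factors Ebf1, Ebf2 and Ebf3. Members were all probe sets (groups of short probes for 1 transcript) that the array's annotation pairs with exactly 1 of these symbols, which gave 19 probe sets for 9 genes among 45037 probe sets on the array. They were measured in mesenchymal stem cells (MSC), stromal cells that grow on plastic and have the capacity to become cartilage, fat or bone, from C57BL/6 mice. The 2 bone marrow lines and the 2 colonic lines (from flushed colon) were each hybridised to 1 Affymetrix mouse array (line 1 and line 2 follow the replicate numbers of the labels), and no genetic change or treatment is given for either group. The culture medium was low in glucose and held 10% serum, and cells were taken for RNA at passages 5 to 10. No step that leads cells to fat formation is described for any of them. Each line is an isolate expanded in culture, and the labels call the lines of a tissue biological replicates without saying whether they came from separate animals. The p-values therefore set each tissue difference against a spread between these lines, which limma estimates in part from other probe sets.

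Fat cell formation runs as a cascade. The C/EBP proteins beta and delta are switched on first by hormonal signals and raise PPAR gamma and C/EBP alpha, which then maintain each other and turn on the genes of the fat cell. Zfp423 and the EBF proteins mark and prepare cells committed to that fate, and Klf15 acts with the C/EBP proteins upstream of PPAR gamma. Outside fat, Ebf1 sets the B lymphocyte lineage, Ebf1 and Ebf3 are known from the stromal cells of the marrow niche, Ebf2 from brown fat precursors, and C/EBP alpha from the myeloid lineage.

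Markers of stromal cells, and of the blood and fat cells that also express these factors, were read as a check of the labels. Of the 9 measured MSC markers, Cd44, Itgb1 and Pdgfrb had intensities between 3377 and 8532 on every array, but Thy1 was at 32.8 and 22.0 in the bone marrow lines against 4516 and 9032 in the colonic lines and Nt5e was at most 209. Others were uneven between lines, with Alcam at 217 and 119 in marrow lines against 2140 and 37.0 in colonic lines, Vcam1 at 2206 and 2535 against 2281 and 266, and Eng at 1323 and 445 against 330 and 1035. Of the 11 macrophage markers 6 passed the filter on low values (a mean intensity over the 4 arrays above 33.3), and the list summed to 2945 and 1211 in the bone marrow lines and to 1754 and 1671 in the colonic lines. Ptprc (at most 28.6), Adgre1 (at most 32.1) and Tyrobp (at most 2.15) were at or near the bottom of the range, while Lyz2 reached 1589 in bone marrow line 1 and Cd14 lay between 573 and 963. Csf1r had 266 and 148 in marrow lines against 324 and 244 in colonic lines. Itgam, Cd68 and Spi1 also passed the filter, with at most 87.7, 74.0 and 70.7. Fcgr1 and Mrc1 did not pass, with at most 37.9 and 34.1. The 8 measured markers of granulocytes and their precursors, which use C/EBP factors, summed to 216 and 239 in bone marrow and to 252 and 234 in colonic lines. The B lineage genes Cd79a, Cd79b, Pax5 and Rag1 stayed at or under 17.5, while Igll1 had 123 and 185 in marrow lines against 59.3 and 142 in colonic lines and Vpreb1 lay between 41.6 and 100.5. Of the 9 measured B lineage markers 3 passed the filter, and the 9 summed to 236 and 325 in bone marrow and to 278 and 312 in colonic lines. Of 6 measured mature fat cell markers the highest value was 73.8, for Adipoq in colonic line 1. Array medians lay between 53.7 and 55.7. An intensity is in arbitrary units, so values and sums are set against each other only between arrays, not between genes.

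Cebpa, the gene of C/EBP alpha, had the largest tissue difference of the 9 genes when all 4 arrays were used. Its probe set 1418982_at had intensities of 872 and 631 in the bone marrow lines and of 18.3 and 35.1 in the colonic lines. Both colonic values lay near the bottom of the intensity range, and the tissues did not overlap. In bulk RNA, fewer cells with a transcript and less of it per cell cannot be told apart. The means were 751 ± 171 (SD, n = 2) and 26.7 ± 11.9 (SD, n = 2). No detection calls were used here, so whether the colonic signals exceed background is not known and no fold is given. On the scale of log2(intensity + 13.7), which understates the ratio of dim signals, the difference of colonic minus bone marrow was -4.26 ± 0.37 (SE, 95% interval -5.24 to -3.27, which takes no account of the number of probe sets). limma with Benjamini-Hochberg adjustment over 27022 probe sets gave an adjusted p of 0.0929, so Cebpa did not pass the threshold of 0.05. No other probe set passed it either, and 0 of 27022 were called (0%), with 5.63% below an unadjusted p of 0.05. Leaving out 1 array at a time, which takes the spread of the remaining line of that tissue to be that of the other tissue, the log2 difference stayed between -4.56 and -3.95, and the limma adjusted p ranged from 0.0572 to 0.454.

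Cebpb, the early inducer that precedes Cebpa in the cascade, gave a different picture. Its intensities were 2143 and 2747 in marrow lines and 2062 and 2820 in colonic lines, so that each tissue had a lower and a higher line at about the same levels. The log2 difference was -0.01 ± 0.27 (SE, 95% interval -0.71 to 0.69), and the second probe set, 1427844_a_at, had 326 and 411 against 314 and 505. The interval leaves room for a difference of about 0.7 on the log2 scale in either direction. Cebpd, the other early C/EBP gene, was at 1530 and 1227 in marrow lines against 1240 and 538 in colonic lines. Colonic line 2 had the low value, while colonic line 1 fell within the bone marrow range. Its log2 difference was -0.73 ± 0.48 (SE, limma adjusted p = 0.990), with -0.14 without colonic line 2 and -1.33 without colonic line 1, and its dim second probe set, at 41.5 to 50.3 on all arrays, differed by -0.09.

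Set against Cebpb within the same array, Cebpa was lower in each colonic line. Taking the bone marrow mean of the log2 ratio of Cebpa to Cebpb as 0, the bone marrow lines stood at 0.41 and -0.41 and the colonic lines at -4.33 and -4.17. Against Cebpd the colonic lines stood at -4.42 and -2.63, and against Pparg at -2.15 and -3.36. These ratios use the log2 scale given above, which understates the ratio of dim signals. Both colonic Cebpa intensities (18.3 and 35.1) lay near the bottom of the range. Whether they exceed background is not known, so the likeness of -4.33 and -4.17 is not read further. The ratios restate the intensities given above, were not among the planned comparisons and add no separate evidence. In them Cebpa was lower against both early C/EBP genes in each colonic line, with an uneven size against Cebpd. With 2 lines per tissue an exact permutation test cannot go below p = 0.333, so none was run on these ratios.

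**Figure D1:**
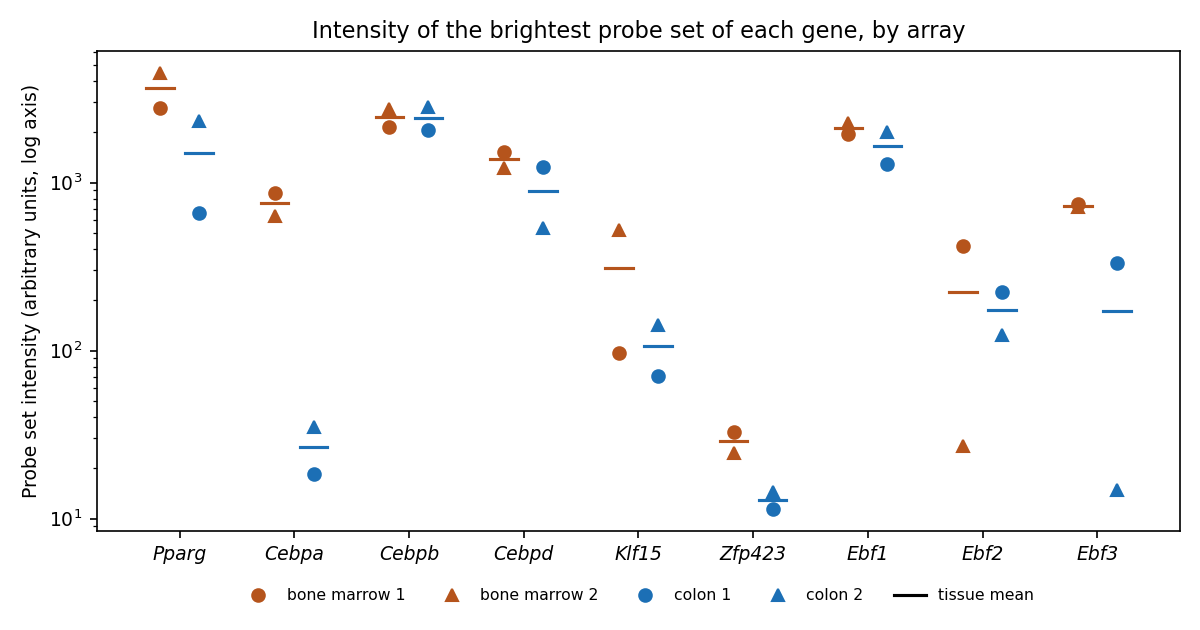
Intensity of the brightest probe set of each of the 9 genes on a log axis, with bone marrow lines in orange and colonic lines in blue (circle line 1, triangle line 2) and bars for the mean of 2 lines. Cebpa lies at 631 and 872 in marrow lines against 18.3 and 35.1 in colonic lines, while Cebpb overlaps between the tissues; levels of different genes are not comparable.

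The stretches upstream of these C/EBP genes are shown because their transcripts, members of 1 family, took different courses between the tissues. Both are the 250 bases before the RefSeq transcription start on GRCm38.p6, 5′ to 3′ on the plus strand, at chr7:35119043-35119292 for Cebpa and chr2:167688665-167688914 for Cebpb. Capitals mark matches, on either strand, to a loose C/EBP-type motif (TTNNGNAA), an EBF-type motif (CCCNNGGG) or a TATA box (TATAAA).
Cebpa: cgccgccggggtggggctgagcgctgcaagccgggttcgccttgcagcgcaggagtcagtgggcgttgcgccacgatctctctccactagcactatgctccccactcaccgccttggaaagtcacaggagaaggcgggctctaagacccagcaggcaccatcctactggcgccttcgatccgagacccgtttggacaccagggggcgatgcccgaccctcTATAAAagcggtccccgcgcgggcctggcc
Cebpb: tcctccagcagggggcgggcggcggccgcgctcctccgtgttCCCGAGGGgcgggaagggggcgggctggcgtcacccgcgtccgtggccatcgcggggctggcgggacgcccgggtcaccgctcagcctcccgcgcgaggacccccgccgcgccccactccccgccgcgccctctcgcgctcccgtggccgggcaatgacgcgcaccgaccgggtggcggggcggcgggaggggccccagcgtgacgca
The Cebpa window holds a TATA box from 30 to 25 bases before the start, which 12.4% of all 32851 promoter windows of that length have, and no match to the other motifs. The Cebpb window holds an EBF-type match, found in 11.8% of all windows, from 208 to 201 bases before the start, and 5 GC boxes (GGGCGG, in 32.7% of windows, with the last 2 letters of the EBF-type match inside one of them). Its GC content of 81.6% exceeds that of 99.3% of the windows, against 66.4% and 85.2% for Cebpa. The fixed letters of the EBF-type motif are all G or C, and its share among windows of such GC content was not counted. A match is a string of letters and not evidence of binding.

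Pparg encodes the nuclear receptor that directs the fat cell programme. Its only probe set, 1420715_a_at, had 2782 and 4520 in marrow lines against 657 and 2340 in colonic lines. All values were well above the array medians. Both colonic values lay below both bone marrow values, but the colonic lines were 3.56-fold apart, and colonic line 2 was close to bone marrow line 1. The log2 difference was -1.50 ± 0.67 (SE, 95% interval -3.25 to 0.25, limma adjusted p = 0.953). It was -0.60 without colonic line 1 and -2.41 without colonic line 2, so its size rests on colonic line 1. Cebpa, by contrast, was low in both colonic lines, including the one with more Pparg signal.

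The RefSeq promoter table lists 3 starts for Pparg, and the most downstream of them is shown because it precedes the fat-specific isoform, PPAR gamma 2, and carries the C/EBP-type letters. Its window is chr6:115421816-115422065 on the plus strand of GRCm38.p6, with capitals as above.
Pparg: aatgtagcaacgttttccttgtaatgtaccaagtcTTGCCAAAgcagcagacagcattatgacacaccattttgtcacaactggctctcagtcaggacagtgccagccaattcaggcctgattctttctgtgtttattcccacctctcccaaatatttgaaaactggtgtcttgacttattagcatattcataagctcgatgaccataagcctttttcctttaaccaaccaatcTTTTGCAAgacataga
The C/EBP-type matches lie 215 to 208 and 16 to 9 bases before the start. Such a match occurs in 36.8% of all windows, and neither of the other Pparg windows has one. The GC content is 82.4% in the most upstream window, 63.6% in the next and 40.8% in the one shown. The probe set's suffix marks probes shared by alternative transcripts of the gene, so the array does not tell the starts apart.

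Klf15, a Krüppel-like factor that rises during fat cell formation, differed more between the bone marrow lines than between the tissue means. Intensities were 97.1 and 524 in marrow lines against 70.3 and 143 in colonic lines. Bone marrow line 2 stood 5.40-fold above line 1, and the tissues overlapped. The log2 difference of -1.09 ± 0.85 (SE, limma adjusted p = 0.990) became 0.05 without bone marrow line 2. Zfp423, a factor of committed preadipocytes, had intensities of 33.0 and 24.7 in marrow lines against 11.4 and 14.4 in colonic lines on its single probe set, 1419380_at. These lay near the bottom of the range on all arrays, under the filter, and were not tested.

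**Figure D2:**
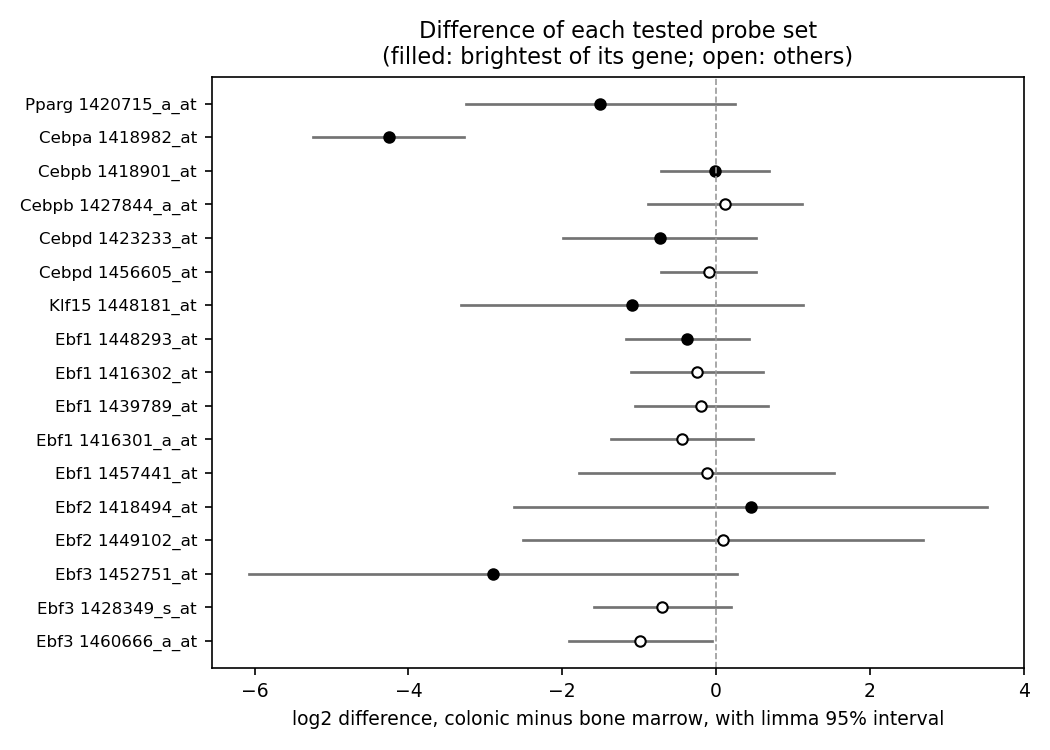
Log2 difference (colonic minus bone marrow, log2 units) of the 17 member probe sets above the filter, with limma's 95% interval; filled points are the brightest probe set of a gene and open points the others. Cebpa (-4.26) has an interval of -5.24 to -3.27, the interval of Ebf3 1460666_a_at ends at -0.05, and the others include 0.

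The EBF genes differed in how their probe sets behaved. Ebf1 had 5 probe sets above the filter. The brightest, 1448293_at, had intensities of 1947 and 2257 in marrow lines against 1297 and 2010 in colonic lines, and 3 others ran in parallel, with centred log2 values within 0.17 of it on every array. Colonic line 1 had the lowest value in each of these 4 probe sets, and colonic line 2 lay within or near the bone marrow range. The log2 difference of the brightest was -0.37 ± 0.31 (SE, 95% interval -1.18 to 0.43), that of the 3 parallel ones -0.25, -0.19 and -0.44, and that of the dim 1457441_at -0.12. Without colonic line 1 the brightest gave -0.06. Each of the 5 intervals included 0.

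Ebf2 split the bone marrow lines. Its brightest probe set, 1418494_at, had 417 and 27.2 in marrow lines against 225 and 124 in colonic lines, so bone marrow line 1 was the highest and bone marrow line 2 the lowest of the 4, near the bottom of the range. A second probe set, 1449102_at, gave the same order, with 130 and 7.07 against 68.0 and 27.6. The third, 1449101_at, was between 15.9 and 34.8 everywhere and under the filter. The log2 difference between tissues was 0.45 ± 1.17 (SE, limma adjusted p = 0.990), although the mean intensity was higher in bone marrow (222 ± 276 against 174 ± 71.5, SD, n = 2). This log2 difference was -1.25 without bone marrow line 2 and 2.15 without bone marrow line 1. Bone marrow line 1, the line with the highest Ebf2, also had the osteoblast factor Sp7 at 1629, against 137 in bone marrow line 2 and 51.2 and 53.1 in colonic lines. The 4 measured osteoblast markers summed to 1751 and 273 in marrow lines and to 380 and 157 in colonic lines. Sp7 made up most of the 1751, and Alpl (60.5), Ibsp (55.8) and Dmp1 (6.43) were not highest in bone marrow line 1. The part of these markers in the Ebf2 values was not tested.

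Ebf3 had its lowest values in colonic line 2. The brightest probe set, 1452751_at, had 743 and 715 in marrow lines against 330 and 14.9 in colonic lines. The bone marrow lines were nearly equal, while the colonic lines were far apart, line 2 being near the bottom of the range. Its log2 difference was -2.91 ± 1.21 (SE, 95% interval -6.08 to 0.27, limma adjusted p = 0.920), with -1.11 without colonic line 2 and -4.70 without colonic line 1. The other probe sets put the same line lowest by less. 1428349_s_at had 211 and 213 against 156 and 100, and 1460666_a_at had 70.7 and 83.6 against 46.6 and 21.1, with log2 differences of -0.70 ± 0.34 and -0.99 ± 0.36 (SE) and limma adjusted p of 0.970 and 0.862. In all 3 probe sets both colonic values lay below both bone marrow values, and centred log2 values of the brightest and the others were up to 2.61 apart on an array.

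Colonic line 2 also stood apart in sex-linked transcripts, looked at after Kdm5d came up among the genes most like Ebf3. Kdm5d, a gene of the Y chromosome, had 530, 538 and 369 in the bone marrow lines and colonic line 1 and 3.60 in colonic line 2. Xist, the RNA that silences an X chromosome, had 2396 in colonic line 2 and at most 39.8 on the other arrays. The labels give no sex, but these values are the pattern of a female line for colonic line 2 and of male lines for the others. The part of this difference in the low Ebf3 value of colonic line 2 was not tested.

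The window before the Ebf3 start is shown because Ebf3 is the member of its family whose probe sets all separated the tissues. It is chr7:137314446-137314695 on GRCm38.p6, read 5′ to 3′ on the minus strand, with capitals as above.
Ebf3: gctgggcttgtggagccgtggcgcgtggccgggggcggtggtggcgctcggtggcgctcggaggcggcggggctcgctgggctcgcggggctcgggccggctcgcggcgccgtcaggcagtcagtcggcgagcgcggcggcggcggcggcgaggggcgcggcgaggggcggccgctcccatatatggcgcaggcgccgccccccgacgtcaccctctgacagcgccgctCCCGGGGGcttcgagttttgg
It holds an EBF-type match 21 to 14 bases before the start, no C/EBP-type match and no TATAAA. Its GC content of 80.0% exceeds that of 98.8% of the windows. The windows of Ebf1 lack the EBF-type letters, and their GC contents are 40% and 52.0%.

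**Figure D3:**
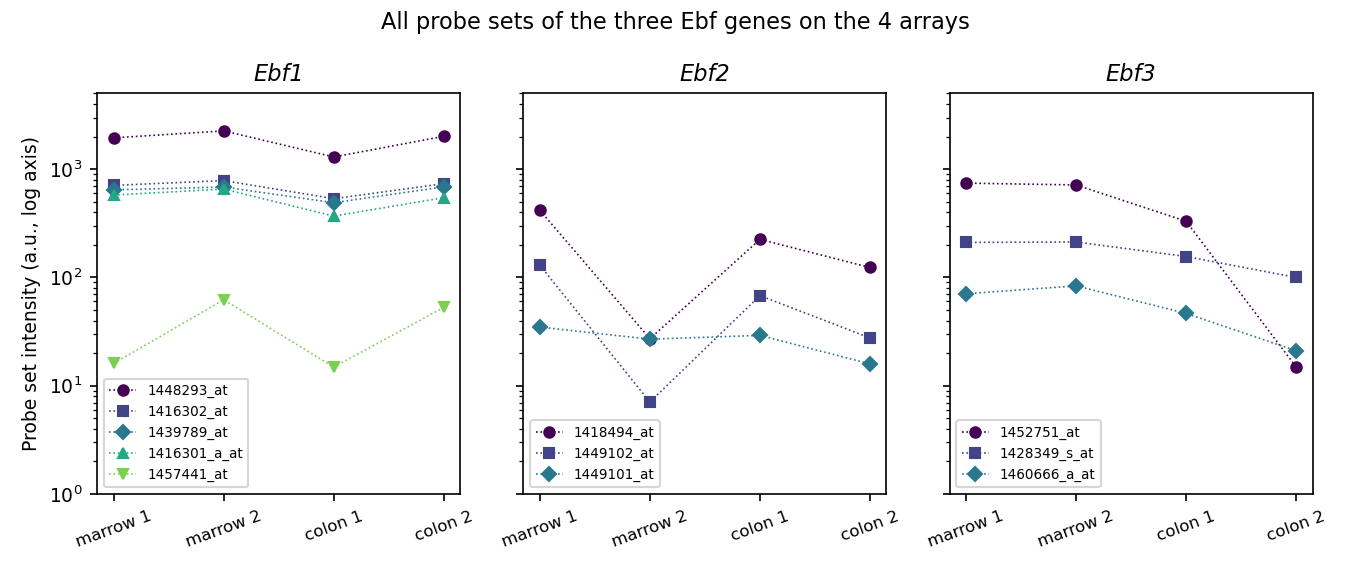
Intensity (log axis) of every probe set of Ebf1, Ebf2 and Ebf3 on the 4 arrays; dotted lines only join the values of 1 probe set. The brighter Ebf1 probe sets run in parallel, Ebf2 is lowest in bone marrow line 2 (27.2 in its brightest probe set), and Ebf3 is lowest in colonic line 2 (14.9).

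Across the members, 17 probe sets of 8 genes passed the filter, 0 were called by limma, and 2, those of Cebpa and 1460666_a_at of Ebf3, had an unadjusted p below 0.05, as did 5.63% of all probe sets tested. In 6 of these 17 both colonic arrays lay below both bone marrow arrays, where 15.5% of all probe sets tested did so, and in 0 of them above, where 17.9% did. The 6 come from 4 genes (Pparg, Cebpa, 3 probe sets of Ebf3 and 1 of the 5 of Ebf1), so they are not independent. A probe set could pass the filter through bone marrow alone, as Cebpa did. Of the 8 brightest probe sets tested, colonic line 1 had the lowest value in 5 (Pparg, Cebpa, Cebpb, Klf15 and Ebf1) and colonic line 2 in 2 (Cebpd and Ebf3). For Cebpb the gap was small, at 2062 against 2143 in bone marrow line 1. The same share over all probe sets was not counted, so these counts are not read as a trait of a line. Colonic line 1 also had the epithelial keratin Krt20 at 889 (at most 29.4 elsewhere) and the bone matrix gene Dmp1 at 206 (at most 6.43 elsewhere). The 7 intestinal epithelium markers, of which 4 passed the filter, summed to 1066 in that line and to between 205 and 262 on the others, with Epcam and Cdx2 at most 19.6 on any array. Krt20 made up most of the sum in that line. Lgals4 was lowest there, at 42.0 against 115 and 116 in marrow lines and 74.1 in colonic line 2. Krt8 had 39.1 there, against 43.6 and 44.7 in marrow lines and 27.5 in colonic line 2. Cdh1 was highest there, at 44.8 against at most 40.1 elsewhere. The part of these marker values in the low member values of colonic line 1 was not tested.

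Genes with the pattern most like a member's were sought among 12929 others, as the smallest root mean square difference of centred log2 values over the 4 arrays. Few arrays and many genes make close matches easy to find. For Cebpa they were Rnf144a (0.31), the acute phase gene Hp (0.33) and the cytochrome gene Cyp1b1 (0.37), which had 10573 and 8531 in marrow lines against 532 and 1112 in colonic lines. For Pparg they were Cenpw (0.15), Kansl1l (0.17) and Aldh1l2 (0.18). Nearest to Ebf2 were Lynx1 (0.15), the immediate early gene Egr1 (0.17) and the DNA repair gene Mgmt (0.20), and Egr1 had 8303 and 949 in marrow lines against 5663 and 3649 in colonic lines. Nearest to Ebf3 were the homeobox gene Hoxc10 (0.15), Slc16a7 (0.27) and Kdm5d (0.32), and to Ebf1 Parp2 (0.015), Tmem97 (0.021) and H2az1 (0.023).

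Of the fat cell genes downstream of these factors, Fabp4 had the largest difference. Over all 12930 genes tested, 15.1% had both colonic values below the bone marrow ones, 18.6% above, and 6.56% an unadjusted limma p below 0.05, and the counts of the lists are set beside these shares. Of 14 tested fat cell genes 0 were called by limma and 2 had an unadjusted p below 0.05, 2 had both colonic values lower and 2 higher, and the median log2 difference was -0.11, against 0.01 over all genes. Fabp4, a fatty acid carrier induced by PPAR gamma, had 5157 and 4901 in marrow lines against 460 and 112 in colonic lines, a log2 difference of -4.37 ± 0.68 (SE, limma adjusted p = 0.261). Scd1, a fatty acid desaturase, had -0.34 and Pnpla2, the fat triglyceride lipase, 0.45. Angptl4, a PPAR target that inhibits lipoprotein lipase, had 766 and 2890 against 1100 and 293. The hormone gene Adipoq was dim in every line.

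Other factors that favour fat formation had 20 tested genes, with 0 called by limma and 3 at an unadjusted p below 0.05, 7 with both colonic values lower and 0 with both higher (35.0% and 0%, beside 15.1% and 18.6% of all genes). The median log2 difference was -0.14. Prdm16, a regulator of brown fat identity, had 233 and 612 in marrow lines against 67.8 and 8.83 in colonic lines (limma adjusted p = 0.640), with between -1.85 and -0.03 in its other probe sets. Nfib, a nuclear factor I gene, had 1340 and 2917 against 796 and 358, and its other probe sets ran from -1.99 to 0.27. Klf9, a Krüppel-like factor that acts on Pparg2, had 5443 and 8411 against 4407 and 2329, and Klf4, an early inducer of Cebpb, 4322 and 2998 against 2633 and 2080.

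Inhibitors of fat formation pointed both ways. Of 16 tested genes 0 were called by limma and 3 had an unadjusted p below 0.05, 4 had both colonic values higher and 4 lower (25% each, beside 18.6% and 15.1% of all genes), and the median log2 difference was -0.07. Gata2, which holds preadipocytes back from Pparg induction, had 458 and 215 in marrow lines against 1878 and 3642 in colonic lines, with a log2 difference of 3.0 ± 0.54 (SE, limma adjusted p = 0.362) and 3.14 in its other probe set. Hes1, a Notch target, had 284 and 118 against 806 and 529, and Zfpm1, a GATA cofactor, 830 and 849 against 1180 and 1244. Foxo1, a forkhead factor, had 1640 and 1516 against 887 and 643, with -1.07 and -0.94 in its other probe sets. Zfp521, an antagonist of Zfp423 and Ebf1, had 747 and 184 against 993 and 825.

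Receptors and adaptors that feed signals into the programme had 14 tested genes, 0 called by limma and 4 at an unadjusted p below 0.05, 8 with both colonic values lower and 1 with both higher (57.1% and 7.14%, beside 15.1% and 18.6% of all genes), and a median log2 difference of -0.26. Pdgfra, a receptor of adipocyte precursors, had 1609 and 2493 in marrow lines against 492 and 743 in colonic lines, with -1.20 and -0.42 in its other probe sets against -1.70 in this one. Pik3r1, the regulatory subunit of PI3 kinase, had 1955 and 2042 against 1058 and 575. Lifr, a receptor of the LIF family, had 1334 and 1624 against 255 and 682, and Pdgfrb 5042 and 4686 against 3377 and 3844. Lepr, the leptin receptor that marks adipogenic stroma of the marrow, lay between 61.4 and 62.9 on all 4 arrays. It counts among the 8 with both colonic values lower, though its log2 difference was only -0.02.

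**Figure D4:**
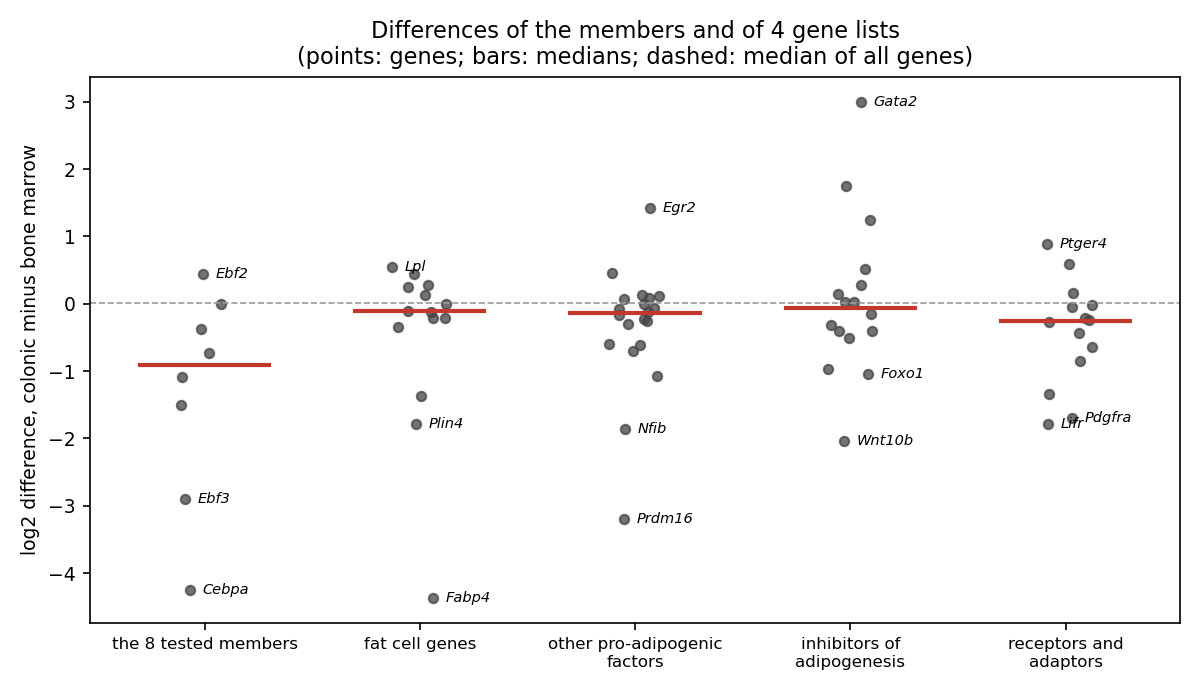
Log2 difference (colonic minus bone marrow, log2 units) of the 8 tested members and of the tested genes of 4 lists, 1 point per gene at its brightest probe set, with bars for medians and a dashed line at the median of all genes. Cebpa (-4.26) and Fabp4 (-4.37) lie lowest, Gata2 (3.0) lies highest, and the list medians run from -0.26 to -0.07.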

How the data were processed

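RNA of 2 bone marrow and 2 colonic MSC lines was amplified and biotin-labelled before hybridisation, per the labels' protocols. The deposited values are probe set intensities, linear as judged from the values. How the authors summarised, background-corrected and scaled the probes is not given in the sources used here. Since log2 array medians lay within 0.05 of each other, their scaling was kept. Without 64 control probe sets, values became log2(intensity + 13.7), with 0.25 of the overall median (54.6) as pseudocount. The 27022 probe sets with a mean above the 40th percentile (33.3) were tested singly with limma 3.58.1 in R 4.3.3 (lmFit, eBayes with trend, tissue as the only term, 2 residual degrees of freedom, prior 2.69, two-sided, Benjamini-Hochberg, threshold 0.05). The number of arrays limits precision. The procedure was also run on data simulated from limma's own fitted variances, which cannot show how well it suits these lines.

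The annotation, of 2016, pairs 34945 probe sets with 1 symbol, 932 with several and 9160 with none. In lists the brightest probe set stood for a gene. All members were named, then the 4 genes of each list with the lowest p. Adipoq, Lepr, Zfp521, Xist, Lpl and Plin4 were chosen after their values were seen. Single cell type markers, such as Sp7, Krt20 and Dmp1, were also named in view of their values, and the within-array ratios were not planned. Members and lists were chosen with earlier results of these data known. RefSeq promoter windows (GRCm38.p6) matched 7 of the 9 genes by symbol. Alternatives were other normalizations, pseudocounts, filters, variance models, 1 value per gene, a replicate block, a threshold of 0.1 and leaving out each array.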

Additional observations from a re-analysis of the deposited data

How the results depend on the processing

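With 2 lines per tissue, most differences here lie within the spread between lines, and the cause of the changes below was not tested. The count of 0 called probe sets became 12 with a filter at the 60th percentile, 54 at an adjusted p of 0.1, and ranged from 0 to 100 with 1 array left out, where the spread of a lone line is taken from the other tissue (72 without colonic line 1, 100 without colonic line 2); it stayed 0 under the other alternatives run. Of the members, 1 probe set, that of Cebpa, was called at an adjusted p of 0.1 and 0 otherwise. Of the fat cell genes, between 0 and 1 were called with 1 array left out, and the other lists had 0 under every alternative run. With the replicate block 0 probe sets were called (1937 below an unadjusted p of 0.05, against 1520 without it) and Cebpa had a limma adjusted p of 0.243. Pparg had an SE of 0.36 with the block against 0.67 without it, and a limma adjusted p of 0.574 against 0.953. Of the member probe sets, 3 had an unadjusted limma p below 0.05 with the block, against 2 without it. Same-numbered lines deviated together with r = 0.139 across probe sets, and the labels do not say what a number shares. Pparg, Cebpa, Cebpd, Ebf3 and the brightest probe set of Ebf1 kept a negative difference under all alternatives run, Cebpa between -4.81 and -3.30. The sign turned in the following. Cebpb 1418901_at had 0.055 with the mean of its probe sets and from -0.23 to 0.22 with 1 array left out, and Cebpb 1427844_a_at from -0.21 to 0.45. Klf15 ran from -2.23 to 0.050, Ebf1 1439789_at from -0.43 to 0.047, Ebf1 1457441_at from -0.80 to 0.49, Ebf2 1418494_at from -1.25 to 2.15 and Ebf2 1449102_at from -1.30 to 1.49, with -0.086 at a pseudocount of the table median.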

Other observations

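Lines of 1 tissue differed widely in some fat cell genes, chosen after their values were seen and not tested. Of the 14 tested genes of the fat cell list, 4 (Plin4, Fasn, Acaca and Lpl) were higher in line 2 than in line 1 of both tissues (28.6%, against 28.4% of all probe sets). Of these, Fasn (5430 and 5525) and Acaca (2166 and 2209) were nearly equal in the colonic lines. Another 4 genes were lower in line 2 of both tissues, for which the share over all probe sets was not counted. Lpl, the lipoprotein lipase, had 125 and 2410 in marrow lines against 94.6 and 6536 in colonic lines, and its other probe set had 32.9 and 731 against 23.3 and 2600. Plin4, a coat protein of lipid droplets, had 1347 and 2403 in marrow lines against 134 and 1846 in colonic lines. Among the 8 brightest member probe sets tested, 4 (Pparg, Cebpb, Klf15 and Ebf1) were higher in line 2 of both tissues (50%, beside 28.4% of all probe sets). For Cebpb and Ebf1 the marrow lines were only 1.28- and 1.16-fold apart. The labels do not say whether lines of the same number share a culture date, passage or animal. In Xist and Kdm5d, bone marrow line 2 (39.8 and 538) and colonic line 2 (2396 and 3.60) had the patterns of different sexes.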
